A study of Mus musculus with 26 samples.

Results

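Gliomas that had lost Notch1, Notch2, both receptors or neither were compared as a 2 by 2 design, to ask for which genes the loss of both receptors differed from the sum of the single losses. The 22 libraries with these genotypes were compared, of 26 sequenced in all. The other 4, labelled Rbpj-/-, entered the filter on low counts, the scaling and the estimate of the spread, but no comparison. Each library was RNA of GFP+ cells sorted from early gliomas of mice, where GFP came from a reporter at the Rosa locus that Cre recombinase switches on. All groups shared the same tumour drivers, PDGF (a growth factor that drives glial progenitors to divide) and loss of Trp53 (the gene of the tumour suppressor p53). Control tumours (n = 6) kept both receptors, and the others were labelled Notch1-/- (n = 6), Notch2-/- (n = 5) and Notch1-/-Notch2-/- (n = 5). The labels give neither the promoter that drove Cre, nor the exons deleted, nor the age or sex of the mice. No label says that the replicates of a group are different mice, so a p-value here reflects sample-to-sample spread alone, which may be technical.

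Both Notch1 and Notch2 code for membrane receptors. When a ligand on a neighbouring cell binds, the receptor is cleaved, and its intracellular part enters the nucleus and joins the DNA-binding protein Rbpj. The complex switches on repressors of the Hes and Hey families, which in the brain keep neural progenitors from becoming neurons, and Nrarp, which dampens the pathway. Both receptors act through the same partner, and a 2 by 2 design of receptor losses can ask whether the effect of losing one depends on the other.

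For each gene the interaction was the log2 change of Notch1-/-Notch2-/- against control, minus the change of Notch1-/-, minus the change of Notch2-/-. It is 0 where the changes multiply, negative where the double loss lies below their sum on the log2 scale, and positive where it lies above. Levels are given in CPM, counts scaled to the library total, ± is the standard error of a log2 value, and adjusted p comes from the quasi-likelihood test of edgeR, with Benjamini-Hochberg correction over all genes tested. A gene is called where adjusted p is under 0.05.

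Total counts per library ran from 37613009 to 46703709 in control, from 31593287 to 42378306 in Notch1-/-, from 37786708 to 48103535 in Notch2-/- and from 35046873 to 44376594 in Notch1-/-Notch2-/-. One library stood apart: Notch1-/- replicate 2 had the lowest median correlation of log2 CPM with its own group (0.943). Beside the other Notch1-/- libraries it was lowest in the summed level of cell cycle genes (1186 CPM against 4078 to 5345) and highest in that of mature oligodendrocyte genes (25061 CPM against 3317 to 7224) and of microglia and macrophage genes (298.7 CPM against 63.9 to 227.8). The 12 called genes and part of the other results are therefore given with and without it. A result with no second value stated is for all libraries. Xist, the RNA of the inactive X chromosome of females, stood at 71.3 CPM or more in control replicates 1 and 6, Notch2-/- replicates 3 and 4 and Notch1-/-Notch2-/- replicates 1 and 2 and not in the Notch1-/- libraries, so these libraries were not spread evenly over the genotypes. Of these, control replicate 6 and Notch2-/- replicates 3 and 4 are called mixed, since they also held RNA of the Y chromosome.

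The deleted receptors were read first. Notch1 (Entrez gene 18128, chromosome 2, 26457902 to 26503822 in GRCm38.p6) ran from 71.2 to 148 CPM (median 97.4) in control and from 88.2 to 214 CPM (median 142) in Notch1-/-. Notch1 stood at 140.2, 125, 130.3, 160.1 and 129 CPM in Notch2-/- replicates 1 to 5 and at 111, 139, 124, 239 and 82.7 CPM in Notch1-/-Notch2-/- replicates 1 to 5. These ranges overlap, and Notch1 was not lower where its loss is labelled (0.40 ± 0.24, adjusted p = 0.204).

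Notch2 (Entrez gene 18129, chromosome 3, 98013538 to 98150367) ran from 9.42 to 16.4 CPM (median 12.0) in control and from 11.4 to 18.1 CPM (median 15.2) in Notch1-/-. Notch2 stood at 6.14, 8.58, 7.34, 7.90 and 6.79 CPM across the 5 libraries with its loss alone, all under the lowest control, and at 11.4, 11.8, 12.9, 10.5 and 9.43 CPM in Notch1-/-Notch2-/- replicates 1 to 5, inside the range of the controls. The libraries labelled Notch1-/-Notch2-/- thus did not show the lower Notch2 level of the libraries labelled Notch2-/-, and every statement on the double loss rests on that label. Whole-gene counts need not show the deletion of exons. The interaction was 0.37 ± 0.21 for Notch2 (adjusted p = 0.464) and -0.38 ± 0.36 for Notch1 (adjusted p = 0.656), and 0.21 ± 0.26 for their partner Rbpj (adjusted p = 0.739). None of these was called.

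Few genes passed the test for a departure from additivity. Of 15617 genes tested, 12 were called for the interaction (0.0768%), 9 of them negative (0.0576%) and 3 positive (0.0192%). The negative ones were the netrin receptor gene Unc5d, the muscarinic receptor gene Chrm3, the membrane-binding copine gene Cpne8, Mtus1, the long noncoding RNA AI506816, Rab6b, Enpp3, Fam78b and Rps2, and the positive ones were the death receptor gene Tnfrsf10b, the zinc finger gene Zfp459 and Rnf151. At an unadjusted p under 0.05 there were 2013 genes (12.9%), 916 positive (5.87%) and 1097 negative (7.02%). All 12 called genes kept the sign of their departure on the linear CPM scale, where additivity means that the differences in CPM add. For Rnf151 the additive level on that scale was -0.167 CPM, below any possible level, so its sign could not change. For Zfp459 that level was 0.0197 CPM, so its sign was nearly fixed as well.

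The count depended on the method and on single libraries. DESeq2's Wald test called 124 genes and limma's voom with quality weights 924, with all 12 and 11 of the 12 among them. Without Notch1-/- replicate 2 there were 227 called genes of 15597 tested (1.46%), 131 positive (0.840%) and 96 negative (0.616%), with all 12 among them. Without Notch1-/-Notch2-/- replicate 3 there were 28. It was 7 without Notch1-/- replicate 4, 7 without Notch2-/- replicate 1, 6 without Notch2-/- replicate 2, and 5 and 6 without Notch1-/-Notch2-/- replicates 2 and 4. Without the 3 mixed libraries 5 genes were called, of which Chrm3, Rps2, Unc5d and Cpne8 were among the 12, and without all 7 libraries that hold Xist, 1 of them Rbpj-/-, Unc5d alone was called. With the Xist level as a covariate 7 of the 12 were called and no other gene. With only the 22 libraries in the fit 11 genes were called, 9 of them among the 12.

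An estimate near 0 is informative only as far as its interval is narrow. The interaction had a median of -0.04 over all genes tested, a 5th percentile of -0.97 and a 95th of 1.28, and a median standard error of 0.32, 1.48 times that of a single loss. For 11333 genes (72.6%) the 95% interval reached less than 1 log2 unit to either side of the estimate, and for 7727 (49.5%) it lay wholly between -1 and 1. An adjusted p that misses the threshold therefore does not show additivity, and 28 genes had one under 0.1.

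**Figure D1:**
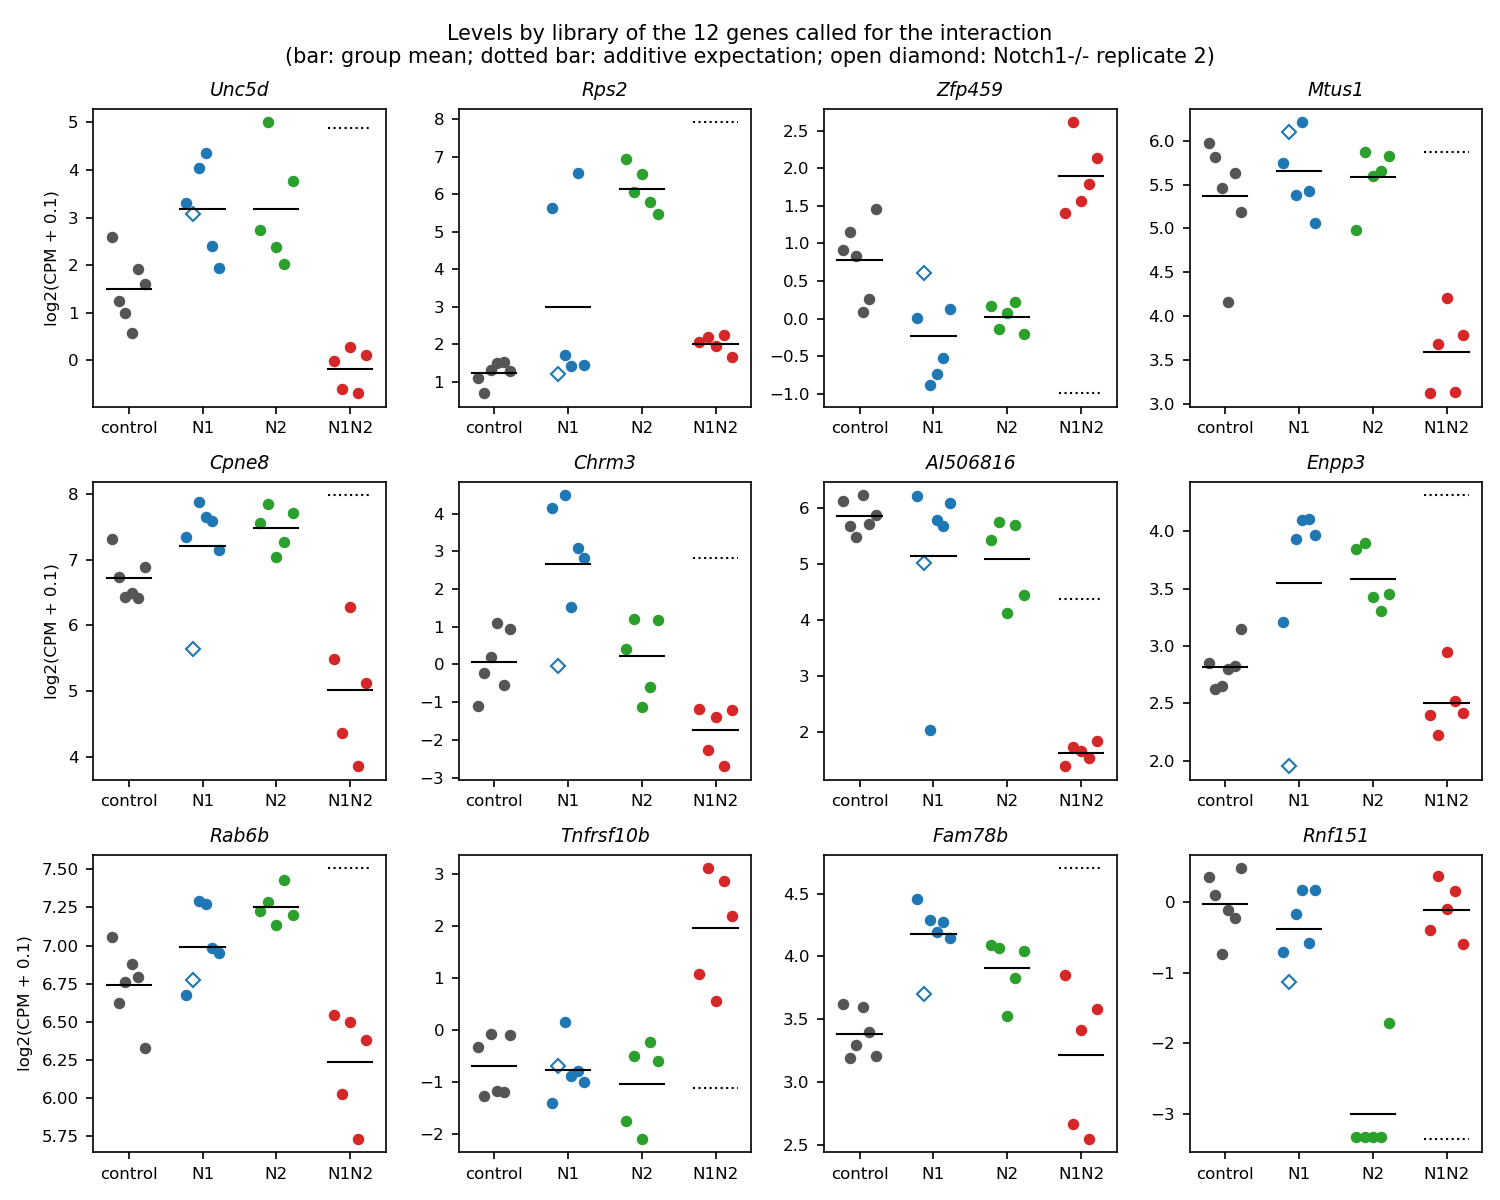
Level of each of the 12 called genes in every library, as log2(CPM + 0.1), by genotype (N1, Notch1-/-; N2, Notch2-/-; N1N2, Notch1-/-Notch2-/-). Bars are group means, the dotted bar is the level at which the double loss would stand if the single changes added, and the open diamond is Notch1-/- replicate 2. The mean of the double loss lies below the dotted bar in 9 panels and above it in 3 (Zfp459, Tnfrsf10b, Rnf151).

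The interaction can be read as the difference between a receptor's loss in 2 backgrounds. Notch1 loss with Notch2 intact moved 4174 genes (26.7%), 2058 up (13.2%) and 2116 down (13.5%), and with Notch2 lost it moved 2714 (17.4%), 1107 up (7.09%) and 1607 down (10.3%). These sets come from separate libraries. They shared 1385 genes moved the same way, 33.2% of the first and 51.0% of the second, and 14 genes moved opposite ways. Across genes, which are not independent replicates, the estimates had Pearson's r of 0.575 and Spearman's rho of 0.582. The Notch target Hes5 shows the pattern, with -2.99 ± 0.39 on Notch1 loss with Notch2 intact and -3.35 ± 0.43 with Notch2 lost. The 2 counts were 12 and 993 with a score of microglia and macrophage genes, whose levels differed between the groups, as a covariate, and were 6907 and 4449 with voom. Without Notch1-/-Notch2-/- replicates 2 and 4 the second count was 1705 and 1478.

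The number of genes that passed the test for Notch2 loss depended strongly on the method. By edgeR there were 46 (0.295%) with Notch1 intact, 20 up (0.128%) and 26 down (0.166%), and 100 (0.640%) with Notch1 lost, 52 up (0.333%) and 48 down (0.307%). The counts were 344 and 284 with DESeq2's Wald test and 1790 and 359 with voom. The edgeR sets shared 4 genes moved the same way, 8.70% of the first set and 4% of the second, with Pearson's r of 0.198 and Spearman's rho of 0.0508 across genes. The median absolute estimates were 0.24 and 0.20, beside median standard errors of 0.23 and 0.23. For Notch1 loss they were 0.38 and 0.33, beside 0.22 and 0.24. Estimates so near their error can correlate little in any case, so the low r does not show that Notch2 loss depended on Notch1. Unc5d stood at 2.02 ± 0.50 with Notch1 intact and at -3.70 ± 0.57 with Notch1 lost. The double loss against control moved 5794 genes (37.1%), 2855 up (18.3%) and 2939 down (18.8%), and 185 with that score in the fit.

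Both Notch2 counts rested on few libraries. With Notch1 intact the count was 170 without Notch1-/- replicate 2. That library is outside the comparison and enters through the shared filter, scaling and spread. The count was 83 without control replicate 4, and 24, 26 and 28 without control replicates 2, 3 and 5. It was 22, 23, 23 and 21 without Notch2-/- replicates 1, 2, 4 and 5. With Notch1 lost the count was 199 without Notch1-/-Notch2-/- replicate 3 and 57, 18, 25 and 46 without replicates 1, 2, 4 and 5 of that group. It was 32, 57, 38, 56 and 40 without Notch1-/- replicates 1, 3, 4, 5 and 6, 62 and 59 without Notch2-/- replicates 4 and 5, and 60, 59 and 59 without control replicates 1, 3 and 5.

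**Figure D2:**
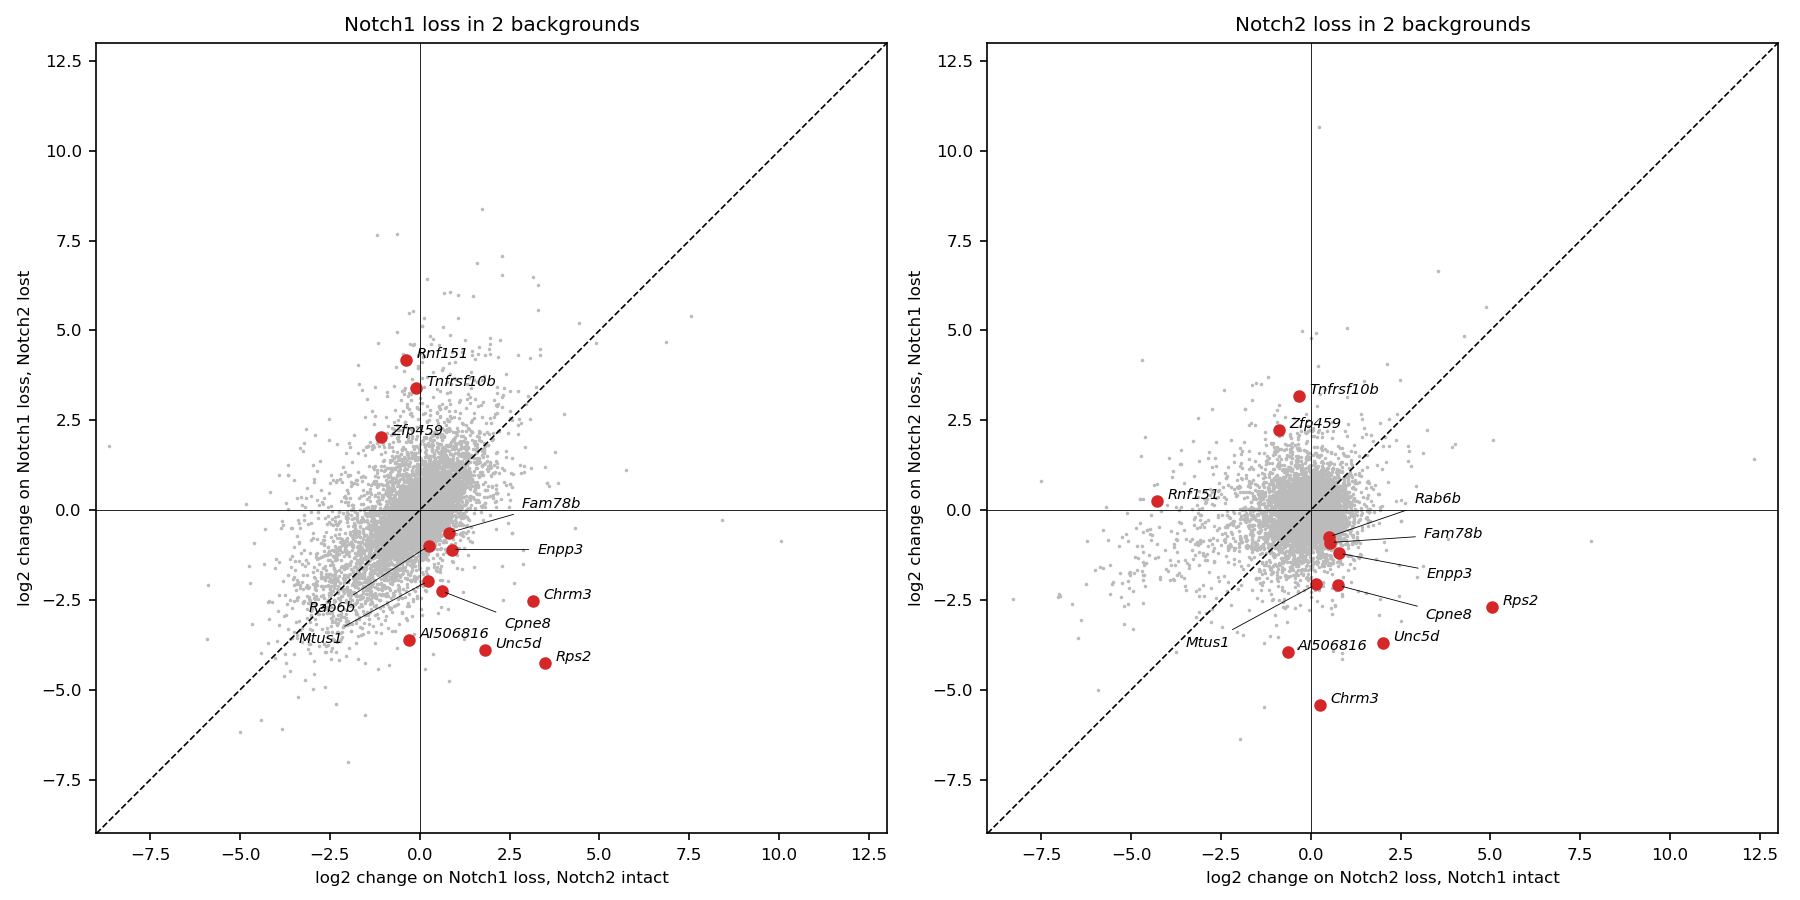
Log2 change of each of 15617 genes on loss of one receptor, with the other receptor intact (x axis) against the other lost (y axis), for Notch1 loss (left) and Notch2 loss (right). Grey points are all genes, red points the 12 called for the interaction, and the dashed diagonal marks equal changes. The cloud lies along the diagonal for Notch1 loss (r of 0.575) and much less so for Notch2 loss (r of 0.198), and the red points stand off the diagonal. The median absolute estimates for Notch2 loss (0.24 and 0.20) were near their median standard errors (0.23 and 0.23), so its lower r is no measure of dependence on Notch1.

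By the estimates, 9 of the 12 called genes were reversals, where the double loss moved opposite to the sum of the single losses, 2 (Rps2 and Rnf151) were buffered, with a double loss of the same sign but smaller, and 1, AI506816, was synergistic, with a larger fall. In all 12 both single estimates had one sign. These classes are descriptions, since an error in a single loss enters the interaction with the opposite sign. By calls, 5 genes moved with the double loss and with neither single one (Mtus1, Cpne8, AI506816, Rab6b, Tnfrsf10b), and 4 moved with a single loss and not with both (Rps2, Enpp3, Fam78b, Rnf151). The other 3 were Unc5d, Zfp459 and Chrm3.

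Unc5d (Entrez gene 210801, chromosome 8, 28646717 to 29219671) codes for a receptor of the axon guidance cue netrin and had the smallest p of all genes. Unc5d ran from 1.39 to 5.96 CPM (median 2.60) in control and from 3.72 to 20.3 CPM (median 9.01) in Notch1-/-. Unc5d levels in Notch2-/- replicates 1 to 5 were 6.60, 31.9, 5.09, 3.95 and 13.5 CPM, and in Notch1-/-Notch2-/- replicates 1 to 5 they were 0.887, 0.556, 1.12, 0.519 and 0.974 CPM. All 5 libraries of the double loss lay below every other library, while the single losses overlapped with the controls at their lower end. Unc5d rose with Notch1 loss (1.81 ± 0.49, adjusted p = 0.00989), stood at 2.02 ± 0.50 with Notch2 loss (adjusted p = 0.0951) and fell with both (-1.89 ± 0.54, adjusted p = 0.00887). Its interaction was -5.71 ± 0.76 (adjusted p = 0.0013), and -5.78 ± 0.78 (adjusted p = 0.000753) without Notch1-/- replicate 2. The call held without each of the 22 libraries in turn and under all 12 other ways of processing.

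The other netrin receptors were not called. Of 14 genes of netrin and Unc5 guidance tested, Unc5d alone was called, 3 had an unadjusted p under 0.05 with a negative interaction and 1 with a positive one (beside 7.02% and 5.87% of all genes), and their median was -0.42 beside -0.04 over all genes. The interaction was -1.03 ± 0.50 for Unc5a (adjusted p = 0.386), -0.41 ± 0.32 for Unc5c (adjusted p = 0.595) and -0.42 ± 0.43 for the attraction receptor Dcc (adjusted p = 0.679). For Unc5b its 95% interval was -2.37 to 0.37 (adjusted p = 0.521). These 4 genes were named after their values were seen.

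Chrm3 (Entrez gene 12671, chromosome 13, 9875486 to 10361062), which codes for a muscarinic acetylcholine receptor, was likewise lowest in the double loss. Chrm3 ran from 0.362 to 2.06 CPM (median 0.906) in control and from 0.875 to 22.4 CPM (median 7.70) in Notch1-/-, where replicate 2 was the lowest. Chrm3 levels in Notch2-/- replicates 1 to 5 were 1.22, 2.23, 0.356, 0.561 and 2.17 CPM, and in Notch1-/-Notch2-/- replicates 1 to 5 they were 0.341, 0.106, 0.28, 0.0546 and 0.333 CPM. Every library of the double loss lay below every other library, with few reads. Chrm3 rose with Notch1 loss (3.15 ± 0.66, adjusted p = 0.00204) and fell with both (-2.28 ± 0.73, adjusted p = 0.0172). The interaction was -5.68 ± 0.99 (adjusted p = 0.0171), and -5.92 ± 0.89 (adjusted p = 0.00208) without Notch1-/- replicate 2. The call ended without replicate 2 or replicate 4 of the double loss (adjusted p up to 0.0575).

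Mtus1, Cpne8 and AI506816 fell with the double loss and passed the test with neither single loss. Mtus1 (Entrez gene 102103, chromosome 8, 40990912 to 41133983), which codes for a microtubule-associated protein described as a candidate tumour suppressor, ran from 17.8 to 62.7 CPM (median 46.6) in control and from 33.4 to 73.8 CPM (median 48.1) in Notch1-/-. Mtus1 levels in Notch2-/- replicates 1 to 5 were 31.5, 58.3, 48.2, 50.1 and 56.7 CPM, and in Notch1-/-Notch2-/- replicates 1 to 5 they were 8.64, 12.8, 18.4, 8.69 and 13.8 CPM. In the double loss Mtus1 lay below all libraries of either single loss and overlapped with the controls through control replicate 4 alone. Mtus1 stood at 0.24 ± 0.24 with Notch1 loss and 0.14 ± 0.26 with Notch2 loss, and fell with both (-1.83 ± 0.27, adjusted p = 4.39e-05). Its interaction was -2.21 ± 0.37 (adjusted p = 0.0123), and -2.11 ± 0.37 (adjusted p = 0.00926) without Notch1-/- replicate 2, and the call held without each library in turn.

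Cpne8 (Entrez gene 66871, chromosome 15, 90487481 to 90679388), of a family of calcium-dependent membrane-binding proteins, ran from 85.6 to 159.7 CPM (median 97.9) in control and from 49.9 to 236 CPM (median 178) in Notch1-/-. Cpne8 levels in Notch2-/- replicates 1 to 5 were 188, 231, 131, 154 and 209.6 CPM, and in Notch1-/-Notch2-/- replicates 1 to 5 they were 44.6, 20.3, 77.7, 14.4 and 34.7 CPM. The double loss lay below every control and Notch2-/- library and overlapped with Notch1-/- through replicate 2 alone. On the linear scale 239 CPM would be additive, and 38.3 CPM was the mean. Cpne8 fell with both receptors lost (-1.49 ± 0.35, adjusted p = 0.00246) and stood at 0.61 ± 0.33 and 0.76 ± 0.34 with Notch1 and Notch2 loss. The interaction was -2.86 ± 0.49 (adjusted p = 0.0156), and -3.04 ± 0.43 (adjusted p = 0.000873) without Notch1-/- replicate 2, and the call held without each library in turn.

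AI506816 (Entrez gene 433855, chromosome 5, 23692261 to 23712667) is annotated as a long noncoding RNA, and its function is not given in the sources used here. AI506816 ran from 44.3 to 74.5 CPM (median 55.5) in control and from 4.02 to 74.0 CPM (median 52.9) in Notch1-/-, where the lowest was replicate 3. AI506816 levels in Notch2-/- replicates 1 to 5 were 42.7, 53.8, 17.4, 51.5 and 21.8 CPM, and in Notch1-/-Notch2-/- replicates 1 to 5 they were 2.55, 3.26, 3.08, 2.81 and 3.51 CPM. All 5 libraries of the double loss lay below every other library, although Notch1-/- replicate 3 came close. AI506816 fell with both receptors lost (-4.26 ± 0.48, adjusted p = 4.22e-06) against -0.30 ± 0.39 and -0.64 ± 0.41 for the single losses. Its interaction was -3.32 ± 0.60 (adjusted p = 0.0207), and -3.40 ± 0.61 (adjusted p = 0.00926) without Notch1-/- replicate 2. The call ended without Notch2-/- replicate 2 and without replicate 2 or replicate 4 of the double loss (adjusted p up to 0.0590).

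Tnfrsf10b (Entrez gene 21933, chromosome 14, 69767472 to 69784411) was the mirror image, at low level. It codes for a receptor of the death ligand TRAIL and is a known target of p53, whose gene is labelled deleted in all these tumours. Tnfrsf10b ran from 0.316 to 0.853 CPM (median 0.521) in control and from 0.279 to 1.01 CPM (median 0.458) in Notch1-/-. Tnfrsf10b levels in Notch2-/- replicates 1 to 5 were 0.197, 0.608, 0.133, 0.747 and 0.559 CPM, and in Notch1-/-Notch2-/- replicates 1 to 5 they were 2.00, 8.58, 1.38, 7.18 and 4.46 CPM. All 5 libraries of the double loss lay above every other one. Tnfrsf10b rose with both receptors lost (3.06 ± 0.48, adjusted p = 8.36e-05), and its interaction was 3.51 ± 0.68 (adjusted p = 0.0413), and 3.51 ± 0.72 (adjusted p = 0.0178) without Notch1-/- replicate 2. It lost its call without 13 libraries taken singly, control replicates 1, 3 and 6, Notch1-/- replicates 1, 4, 5 and 6, Notch2-/- replicates 1, 2, 3 and 5 and Notch1-/-Notch2-/- replicates 2 and 4 (adjusted p up to 0.105). Of 17 p53 targets tested it alone was called (beside 0.0192% of all genes called positive), and their median interaction was 0.22. At an unadjusted p under 0.05 there were 4 positive, Tnfrsf10b among them, and 1 negative (beside 5.87% and 7.02% of all genes).

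Zfp459 (Entrez gene 328274, chromosome 13, 67405033 to 67443302) codes for a zinc finger protein. Zfp459 ran from 0.96 to 2.65 CPM (median 1.73) in control and from 0.443 to 1.42 CPM (median 0.751) in Notch1-/-. Zfp459 levels in Notch2-/- replicates 1 to 5 were 1.03, 0.81, 0.956, 1.07 and 0.766 CPM, and in Notch1-/-Notch2-/- replicates 1 to 5 they were 2.55, 6.01, 2.85, 3.36 and 4.28 CPM. With both receptors lost Zfp459 lay above both single losses and overlapped with the top of the controls. Zfp459 fell with Notch1 loss (-1.08 ± 0.32, adjusted p = 0.018) and rose with both (1.15 ± 0.33, adjusted p = 0.00889). The interaction was 3.11 ± 0.48 (adjusted p = 0.00507), and 3.36 ± 0.47 (adjusted p = 0.000873) without Notch1-/- replicate 2, and the call held without each library in turn.

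Rab6b, Enpp3 and Fam78b had higher means in both single losses than in the double loss. Rab6b (Entrez gene 270192, chromosome 9, 103111667 to 103185276) codes for a small GTPase of Golgi transport enriched in neurons. Rab6b ran from 80.4 to 133 CPM (median 109.6) in control, from 102 to 157 CPM (median 125) in Notch1-/-, and stood at 149.7, 156, 141, 172 and 147 CPM in Notch2-/- replicates 1 to 5 and 93.1, 65.0, 90.2, 53.1 and 83.1 CPM in Notch1-/-Notch2-/- replicates 1 to 5. The double loss lay below every library of the single losses and overlapped with the controls. Its interaction was -1.25 ± 0.23 (adjusted p = 0.0248), and -1.29 ± 0.23 (adjusted p = 0.00941) without Notch1-/- replicate 2. The call ended without control replicate 2, Notch1-/- replicate 4, Notch2-/- replicates 1, 2 and 4 and Notch1-/-Notch2-/- replicates 2 and 4, taken singly (adjusted p up to 0.0845).

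Enpp3 (Entrez gene 209558, chromosome 10, 24773814 to 24836195), which codes for a surface enzyme that splits nucleotides, ran from 6.07 to 8.78 CPM (median 6.93) in control and from 3.78 to 17.1 CPM (median 15.4) in Notch1-/-. Enpp3 levels were 14.3, 14.8, 10.6, 9.77 and 10.9 CPM in Notch2-/- replicates 1 to 5 and 5.16, 4.58, 7.60, 5.63 and 5.23 CPM in Notch1-/-Notch2-/- replicates 1 to 5. Every Notch2-/- library lay above every control, as did every Notch1-/- library save replicate 2, while the double loss overlapped with the controls. Its interaction was -1.99 ± 0.37 (adjusted p = 0.0248), and -2.17 ± 0.26 (adjusted p = 0.000242) without Notch1-/- replicate 2, the smallest p of that fit. The call ended without control replicates 2 and 3, Notch1-/- replicates 4, 5 and 6, Notch2-/- replicates 1 and 2 and Notch1-/-Notch2-/- replicates 1, 2 and 4, taken singly (adjusted p up to 0.0845).

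Fam78b (Entrez gene 226610, chromosome 1, 166999851 to 167091302) ran from 9.02 to 12.2 CPM (median 10.1) in control and from 12.9 to 21.9 CPM (median 18.7) in Notch1-/-. Fam78b levels were 16.9, 16.7, 11.4, 14.1 and 16.4 CPM in Notch2-/- replicates 1 to 5 and 14.3, 6.25, 10.6, 5.74 and 11.8 CPM in Notch1-/-Notch2-/- replicates 1 to 5. Every Notch1-/- library lay above every control, and the double loss overlapped with the controls. Its interaction was -1.44 ± 0.28 (adjusted p = 0.0413), and -1.52 ± 0.28 (adjusted p = 0.0107) without Notch1-/- replicate 2. The call ended without 15 libraries taken singly, control replicates 2, 3, 5 and 6, Notch1-/- replicates 1, 3, 4, 5 and 6, Notch2-/- replicates 1, 2, 4 and 5 and Notch1-/-Notch2-/- replicates 2 and 4 (adjusted p up to 0.105).

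The last 2 called genes, Rps2 (Entrez gene 16898, chromosome 17, 24718121 to 24721927) and Rnf151 (Entrez gene 67504, chromosome 17, 24715839 to 24718057), lie 63 bases apart and are uncertain. Rps2 codes for a protein of the small ribosomal subunit and has near-identical copies in the genome, among which the authors' counting could split reads. Rps2 ran from 1.52 to 2.75 CPM (median 2.35) in control. Rps2 levels in Notch1-/- replicates 1 to 6 were 49.1, 2.22, 3.19, 2.58, 94.4 and 2.64 CPM, in Notch2-/- replicates 1 to 5 they were 122, 65.9, 92.0, 54.8 and 43.9 CPM, and in Notch1-/-Notch2-/- replicates 1 to 5 they were 4.09, 4.42, 3.73, 4.64 and 3.02 CPM. High levels were thus found in all 5 Notch2-/- libraries and in Notch1-/- replicates 1 and 5, and in no library of the double loss. Gapdh, another gene with many copies, was listed at no more than 2.16 CPM in these libraries. Its means were 0.579, 1.12, 0.497 and 1.91 CPM in control, Notch1-/-, Notch2-/- and Notch1-/-Notch2-/-. The cause of the differences in Rps2 between libraries was not tested. The interaction of Rps2 was -7.74 ± 1.12 (adjusted p = 0.00276), and -7.97 ± 1.03 (adjusted p = 0.00052) without Notch1-/- replicate 2.

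Rnf151, a gene named for its RING finger, had 0 counts in Notch2-/- replicates 1 to 4 and 10 counts in replicate 5. Rnf151 ran from 0.502 to 1.30 CPM (median 0.896) in control and from 0.356 to 1.03 CPM (median 0.681) in Notch1-/-, and stood at 0.659, 1.19, 0.84, 1.01 and 0.564 CPM in Notch1-/-Notch2-/- replicates 1 to 5. The Notch2-/- libraries thus lay below all others. Its fitted interaction was 4.54 ± 0.89 (adjusted p = 0.0413), and 4.41 ± 0.90 (adjusted p = 0.0179) without Notch1-/- replicate 2, a size that depends on the prior count. Without Notch2-/- replicate 5, the only library of its group with reads, the fitted value was 8.47, and it is no bound. The call ended without 16 libraries taken singly, control replicates 1, 2, 5 and 6, Notch1-/- replicates 1, 3, 4, 5 and 6, Notch2-/- replicates 1, 2, 3 and 4 and Notch1-/-Notch2-/- replicates 1, 2 and 4 (adjusted p up to 0.108). The counting's use of strand is not given in the sources used here.

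RefSeq promoter windows (GRCm38.p6, 250 bases before to 50 after the start) were found for 8 of the 12 called genes. They were searched on both strands for TGGGAA, the core of the motif that Rbpj binds, and for CACGNG, which covers motifs of Hes and Hey repressors, where N is any base. None of the 8 windows held TGGGAA, beside 25.6% of 32851 windows, and 5 (Chrm3, Rps2, Rab6b, Zfp459, Rnf151) held CACGNG, beside 27.5%. The windows of 3 called genes are shown beside that of Hes5, the Notch target whose window held TGGGAA on both strands, 226 and 82 bases before the start. Capitals mark the matches, with TTCCCA and CCCGTG as reverse complements. A match is a description of letters, not a bound site. The start used is an annotated start of the gene and need not be its outer end. The windows of Chrm3, Rps2, Rab6b, Zfp459 and Hes5 lie within the listed spans of these genes. That of Zfp459, on the minus strand, lies far from the outer end of its span at 67443302.
Hes5 (chr4:154960673-154960972, plus strand): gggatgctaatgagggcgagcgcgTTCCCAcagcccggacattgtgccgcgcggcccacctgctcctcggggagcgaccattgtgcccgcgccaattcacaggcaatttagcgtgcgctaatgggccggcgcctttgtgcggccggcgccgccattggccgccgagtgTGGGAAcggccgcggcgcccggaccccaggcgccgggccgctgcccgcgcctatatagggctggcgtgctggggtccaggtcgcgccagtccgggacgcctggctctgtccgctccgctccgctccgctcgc
Rab6b (chr9:103111824-103112123, plus strand): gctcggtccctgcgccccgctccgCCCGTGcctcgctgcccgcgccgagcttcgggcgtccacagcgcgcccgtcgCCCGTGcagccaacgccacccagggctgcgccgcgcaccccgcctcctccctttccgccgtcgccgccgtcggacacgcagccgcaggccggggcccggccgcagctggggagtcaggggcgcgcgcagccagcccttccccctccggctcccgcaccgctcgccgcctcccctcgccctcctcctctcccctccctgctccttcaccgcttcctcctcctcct
Zfp459 (chr13:67421369-67421668, minus strand): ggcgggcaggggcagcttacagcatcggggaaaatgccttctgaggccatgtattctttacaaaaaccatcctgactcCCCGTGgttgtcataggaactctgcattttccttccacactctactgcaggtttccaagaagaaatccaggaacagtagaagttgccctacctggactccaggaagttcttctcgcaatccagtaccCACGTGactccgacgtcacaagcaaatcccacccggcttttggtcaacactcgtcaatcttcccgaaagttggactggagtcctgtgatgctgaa
Cpne8 (chr15:90679339-90679638, minus strand): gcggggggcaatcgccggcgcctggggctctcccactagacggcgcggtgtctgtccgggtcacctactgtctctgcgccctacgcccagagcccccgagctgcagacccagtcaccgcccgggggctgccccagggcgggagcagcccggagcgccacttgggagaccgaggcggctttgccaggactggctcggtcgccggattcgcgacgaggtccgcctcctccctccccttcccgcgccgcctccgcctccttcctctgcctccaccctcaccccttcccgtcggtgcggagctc
Rab6b held CACGNG 226 and 174 bases before the start, Zfp459 172 and 45 before it, and Cpne8 neither motif.

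A list of genes switched on by MAPK signalling, the kinase cascade below PDGF receptors, leaned to negative interactions. Of 17 such genes tested, none was called with all libraries, 11 had an unadjusted p under 0.05 with a negative interaction (beside 7.02% of all genes) and 0 with a positive one, and the median was -0.89 beside -0.04 over all genes. Without Notch1-/- replicate 2 the median was -1.03 and 7 were called, all negative (beside 0.616% of all genes): the ERK phosphatase gene Dusp6, the cyclin gene Ccnd1, the feedback inhibitor genes Spry1, Spry2 and Spry4, the immediate early gene Egr1 and Phlda1. Save for Dusp6, these were named after their values were seen. The call of each rests on leaving out that library, which had the lowest summed level of the list in its group, 1636 CPM against 3899 to 6022. A list of 22 immediate early and dissociation stress genes, which also holds Egr1, leaned the other way. Of these, 6 were positive and 2 negative at an unadjusted p under 0.05 (beside 5.87% and 7.02% of all genes), with a median of 0.74. Without Notch1-/- replicate 2 the numbers were 5 and 2 (beside 9.35% and 8.12%), with a median of 0.62. Then 1 was called positive and 2 negative (beside 0.840% and 0.616%).

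Dusp6 ran from 134 to 226 CPM (median 152) in control and from 56.2 to 246 CPM (median 179) in Notch1-/-, where the lowest was replicate 2 and the next stood at 150.1 CPM. Dusp6 levels were 228, 253, 195, 154 and 160.3 CPM in Notch2-/- replicates 1 to 5 and 93.8, 67.8, 112, 46.4 and 83.8 CPM in Notch1-/-Notch2-/- replicates 1 to 5. The double loss lay below every library of the other groups save Notch1-/- replicate 2. Dusp6 fell with both losses (-1.03 ± 0.27, adjusted p = 0.00466) and stood at 0.03 ± 0.25 and 0.26 ± 0.26 with Notch1 and Notch2 loss. Its interaction was -1.33 ± 0.37 (adjusted p = 0.206), and -1.50 ± 0.29 (adjusted p = 0.0138) without Notch1-/- replicate 2.

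Ccnd1, which codes for cyclin D1, ran from 626 to 1435 CPM (median 759.7) in control and from 664 to 3317 CPM (median 1807) in Notch1-/-, again with replicate 2 the lowest. Ccnd1 levels were 1456, 1802, 1069, 994 and 1728 CPM in Notch2-/- replicates 1 to 5 and 1373, 1032, 1259.6, 735 and 962 CPM in Notch1-/-Notch2-/- replicates 1 to 5. The double loss overlapped with the controls, while 5 of 6 Notch1-/- and 3 of 5 Notch2-/- libraries lay above every control. Ccnd1 rose with Notch1 loss (1.08 ± 0.29, adjusted p = 0.00966) and stood at 0.29 ± 0.30 with both. The interaction was -1.48 ± 0.43 (adjusted p = 0.206), and -1.65 ± 0.37 (adjusted p = 0.0286) without Notch1-/- replicate 2.

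Spry4 codes for an inhibitor that MAPK signalling itself induces. Spry4 ran from 124 to 260.4 CPM (median 188) in control and from 86.7 to 383 CPM (median 353) in Notch1-/-, with replicate 2 the lowest. Spry4 levels were 267, 356, 242, 267 and 256 CPM in Notch2-/- replicates 1 to 5 and 234, 107, 218, 62.7 and 156 CPM in Notch1-/-Notch2-/- replicates 1 to 5, where every library lay below every Notch2-/- library while overlapping with the controls. Its interaction was -1.50 ± 0.44 (adjusted p = 0.206), and -1.69 ± 0.36 (adjusted p = 0.0232) without Notch1-/- replicate 2. For Egr1 it was -1.52 ± 0.46 (adjusted p = 0.211), and -1.71 ± 0.37 (adjusted p = 0.0243) without that library. Spry1 stood at -0.90 ± 0.30 (adjusted p = 0.25), and at -1.04 ± 0.24 (adjusted p = 0.0291) without it. Spry2 stood at -1.16 ± 0.38 (adjusted p = 0.25), and at -1.35 ± 0.26 (adjusted p = 0.0142) without it. The transcription factor gene Etv1 stood at -0.76 ± 0.28 (adjusted p = 0.281), and at -0.88 ± 0.26 (adjusted p = 0.0786) without it. Myc and Fosl1 had positive estimates, 0.38 and 0.89, as had Dusp5 (0.18).

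**Figure D3:**
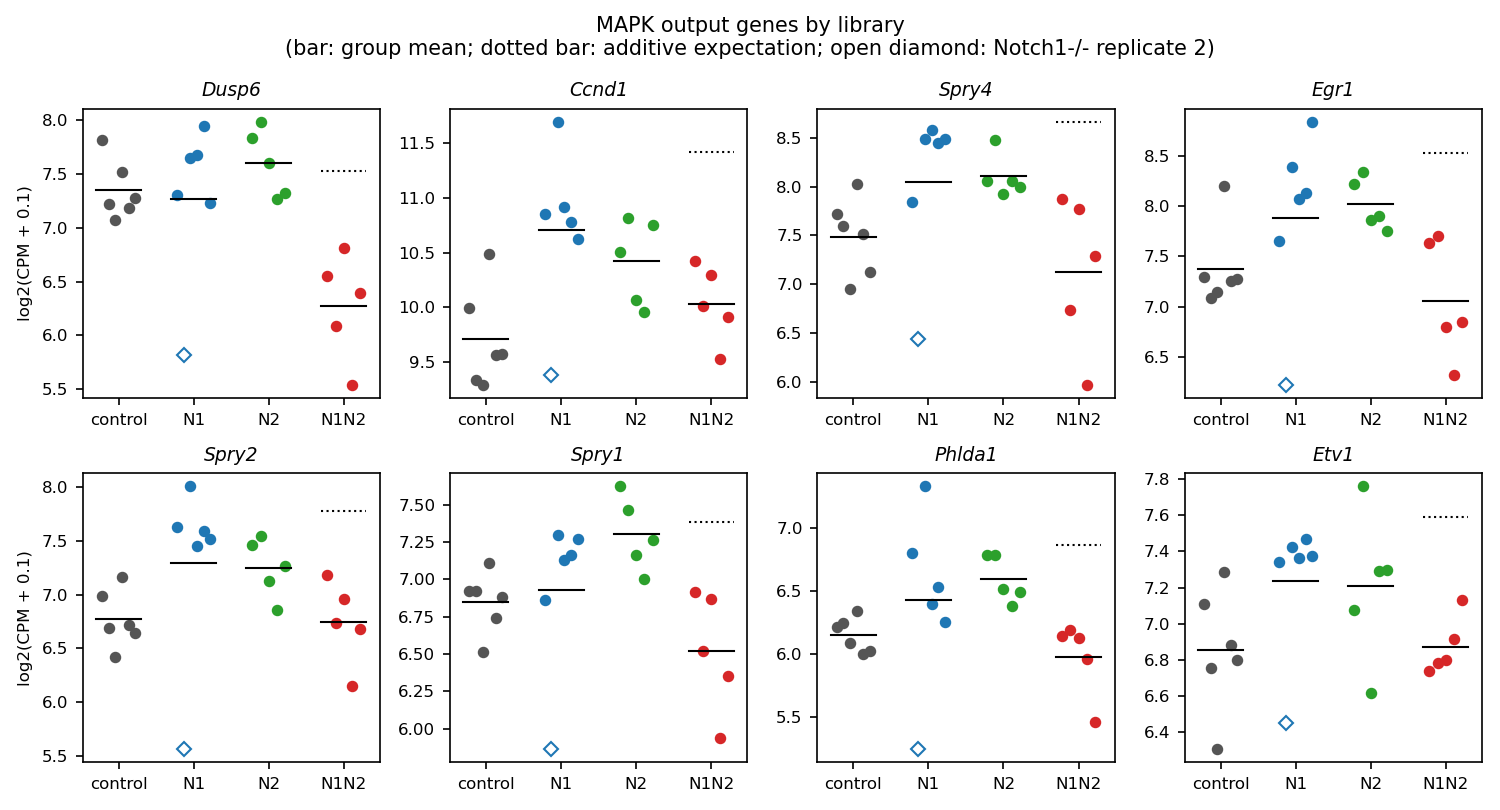
Level of 8 MAPK output genes in every library, as log2(CPM + 0.1), by genotype, drawn as for the called genes. The open diamond, Notch1-/- replicate 2, is the lowest Notch1-/- library in all 8 panels, and the mean of the double loss lies below the dotted additive level in each.

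**Figure D4:**
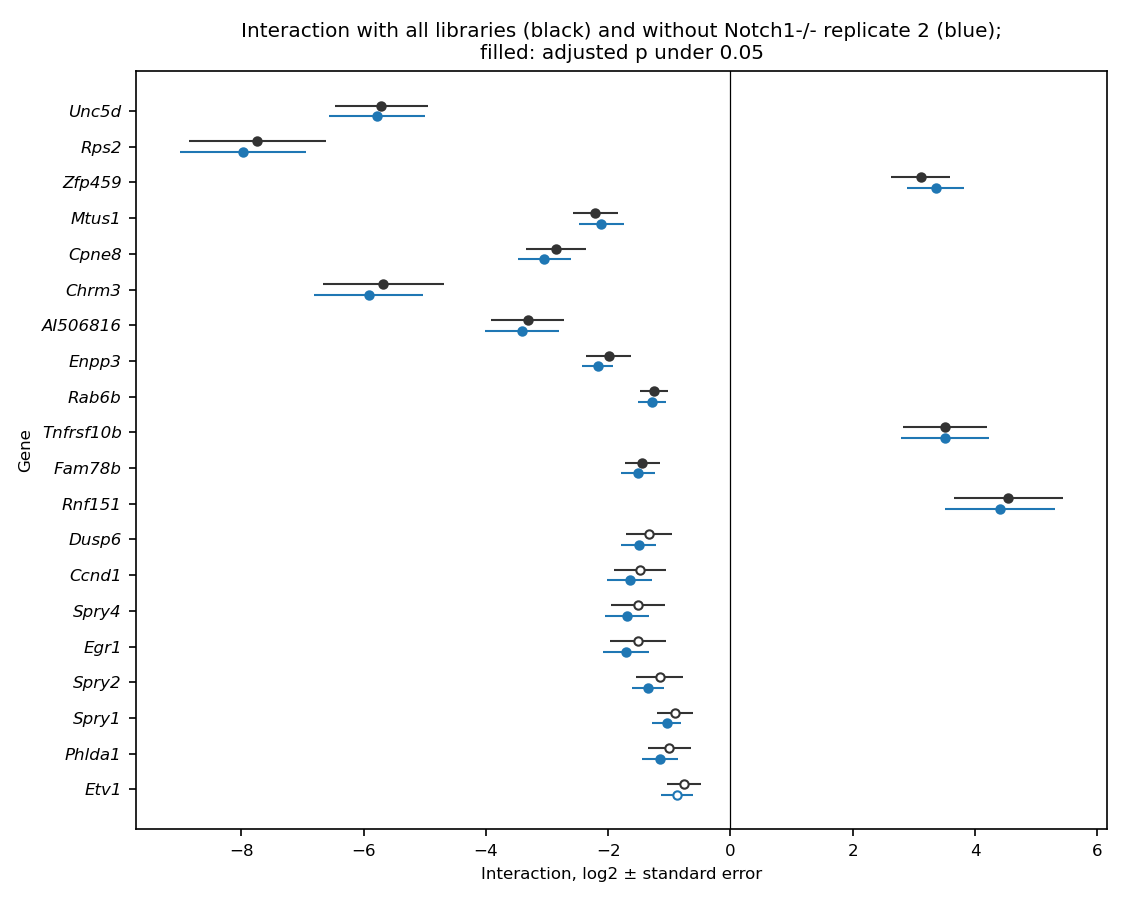
Interaction (log2, with standard error bars) of the 12 called genes and the 8 MAPK output genes, with all libraries (black) and without Notch1-/- replicate 2 (blue). Filled points have an adjusted p under 0.05. All 20 estimates keep their sign, and 7 of the 8 MAPK output genes are filled only in blue.

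None of the direct readouts of Notch activity passed the test for the interaction with all libraries. Of 10 Notch targets tested, none was called, 2 had an unadjusted p under 0.05 with a positive and 1 with a negative interaction (beside 5.87% and 7.02% of all genes), and the median was 0.21. The targets described here other than Dll4 were named after their values were seen. Hes5, the repressor that marks Notch activity in neural progenitors, ran from 2.27 to 7.97 CPM (median 3.43) in control and from 0.312 to 0.705 CPM (median 0.483) in Notch1-/-. Hes5 levels were 8.54, 8.18, 6.36, 6.73 and 2.38 CPM in Notch2-/- replicates 1 to 5 and 0.568, 0.53, 1.19, 0.519 and 0.333 CPM in Notch1-/-Notch2-/- replicates 1 to 5. Every library with Notch1 loss lay below every library without it. Notch2 loss stood at 0.65 ± 0.37 with Notch1 intact and 0.29 ± 0.40 with Notch1 lost, and the interaction of Hes5 was -0.36 ± 0.55 (95% interval -1.49 to 0.78, adjusted p = 0.799).

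Nrarp, the feedback inhibitor, ran from 16.4 to 35.2 CPM (median 21.7) in control and from 1.78 to 10.1 CPM (median 7.29) in Notch1-/-. Nrarp levels were 41.7, 38.5, 29.5, 31.6 and 29.4 CPM in Notch2-/- replicates 1 to 5 and 7.55, 4.16, 7.35, 3.74 and 5.23 CPM in Notch1-/-Notch2-/- replicates 1 to 5. Here too the libraries with Notch1 loss lay below all others. The interaction of Nrarp was -0.78 ± 0.44 (adjusted p = 0.453), and that of Hey1, which fell with Notch1 loss in both backgrounds (-0.99 ± 0.19 and -0.96 ± 0.20), was 0.03 ± 0.27 (95% interval -0.54 to 0.60, adjusted p = 0.97).

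Hes1, another repressor of the family, ran from 11.9 to 21.3 CPM (median 13.8) in control and from 1.09 to 11.6 CPM (median 6.58) in Notch1-/-. Hes1 levels were 26.1, 23.8, 17.7, 15.1 and 17.4 CPM in Notch2-/- replicates 1 to 5 and 3.07, 3.26, 2.96, 1.39 and 2.87 CPM in Notch1-/-Notch2-/- replicates 1 to 5. The double loss lay below every library save Notch1-/- replicate 2, at 1.09 CPM. Hes1 fell with Notch1 loss (-1.19 ± 0.37, adjusted p = 0.0229) and with both (-2.44 ± 0.42, adjusted p = 0.000169), and its interaction was -1.69 ± 0.55 (adjusted p = 0.25), and -1.91 ± 0.44 (adjusted p = 0.0291) without that library. Hey2 stood at 0.95 ± 0.36 (adjusted p = 0.301) with all libraries, and at 1.29 ± 0.29 (adjusted p = 0.0273) without that library. Heyl stood at 0.59 ± 0.81 (adjusted p = 0.775), and at 2.07 ± 0.48 (adjusted p = 0.0308) without it, so the estimate of Heyl rests on that library. In Notch1-/- replicate 2 Hey2 and Heyl stood at 40.1 and 18.7 CPM, the highest of its group.

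Of 28 Notch receptors, ligands and processing genes, none was called with all libraries, 3 had an unadjusted p under 0.05 with a positive interaction and 0 with a negative one (beside 5.87% and 7.02% of all genes), and the median was 0.04. The inhibitory ligand gene Dll3 ran from 34.3 to 42.9 CPM (median 40.0) in control and from 37.3 to 62.6 CPM (median 54.8) in Notch1-/-. Dll3 levels were 34.8, 24.1, 46.5, 38.9 and 28.5 CPM in Notch2-/- replicates 1 to 5 and 75.9, 104, 73.6, 95.1 and 82.9 CPM in Notch1-/-Notch2-/- replicates 1 to 5, where every library lay above every other. Dll3 rose with Notch1 loss (0.47 ± 0.15, adjusted p = 0.0219) and with both (1.15 ± 0.15, adjusted p = 1.57e-05), and its interaction was 0.85 ± 0.22 (adjusted p = 0.159), and 0.78 ± 0.20 (adjusted p = 0.0484) without Notch1-/- replicate 2. Mfng, which codes for a sugar transferase that tunes the receptors' response to ligands, stood at 2.23 ± 0.53 (adjusted p = 0.115), and at 2.27 ± 0.56 (adjusted p = 0.0407) without it. The ligand gene Dll4 stood at 2.17 ± 0.57 (adjusted p = 0.187), with means of 0.924, 0.178, 0.496 and 0.435 CPM in control, Notch1-/-, Notch2-/- and Notch1-/-Notch2-/-.

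Genes of the division machinery showed no departure past the test. Of 30 cell cycle genes, 0 were called and 0 had an unadjusted p under 0.05, and the median interaction was -0.06. Without Notch1-/- replicate 2 the median was -0.26 and 2 had such a p, both negative (beside 8.12% of all genes). By edgeR 5 of them rose with Notch1 loss, 0 with Notch2 loss and 21 with both, beside 13.2%, 0.128% and 18.3% of all genes. Of 19 genes of cholesterol synthesis, likewise, 0 were called and 0 had an unadjusted p under 0.05, with a median of 0.01 and a range of -0.36 to 0.49. Among D cyclins and inhibitors of cyclin-dependent kinases, 1 of 12 had an unadjusted p under 0.05 with a positive and 4 with a negative interaction (beside 5.87% and 7.02% of all genes). The inhibitor gene Cdkn1c, also called p57, ran from 1.92 to 10.2 CPM (median 3.33) in control and from 1.50 to 10.1 CPM (median 2.63) in Notch1-/-, where replicate 2 was the highest. Cdkn1c levels were 1.55, 1.92, 3.69, 3.28 and 1.64 CPM in Notch2-/- replicates 1 to 5 and 13.0, 24.9, 4.48, 18.5 and 16.1 CPM in Notch1-/-Notch2-/- replicates 1 to 5. Cdkn1c rose with both losses (1.80 ± 0.52, adjusted p = 0.00914), and its interaction was 2.93 ± 0.74 (adjusted p = 0.148), and 3.55 ± 0.67 (adjusted p = 0.0133) without that library. The cyclin gene Ccnd2, named after its value was seen, went the other way, at -2.38 ± 0.69 (adjusted p = 0.206), and -2.61 ± 0.61 (adjusted p = 0.0338) without it.

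Genes of hypoxia and glycolysis leaned to positive interactions. Of 22 tested, none was called, 13 had an unadjusted p under 0.05 with a positive interaction (beside 5.87% of all genes) and 0 with a negative one, and the median was 0.97. Without Notch1-/- replicate 2 there were 11 positive and 0 negative at that p (beside 9.35% and 8.12% of all genes). The median was then 0.88, and none was called. Ankrd37, a target of hypoxia-inducible factors, had the smallest p of the list. Ankrd37 ran from 2.46 to 9.62 CPM (median 2.84) in control and from 1.59 to 3.84 CPM (median 2.56) in Notch1-/-. Ankrd37 levels were 1.25, 1.82, 2.60, 1.52 and 1.47 CPM in Notch2-/- replicates 1 to 5 and 3.93, 6.41, 2.12, 7.16 and 5.05 CPM in Notch1-/-Notch2-/- replicates 1 to 5. The groups overlap, and the interaction was 2.09 ± 0.54 (adjusted p = 0.168). The mitophagy gene Bnip3 stood at 1.84 ± 0.58 (adjusted p = 0.232), the pyruvate dehydrogenase kinase gene Pdk1 at 1.17 ± 0.41 (adjusted p = 0.27) and the hexokinase gene Hk2 at 1.67 ± 0.61 (adjusted p = 0.281), all named after their values were seen. Within the double loss replicates 2 and 4 were the highest of these 3 genes, with Bnip3 at 18.8, 68.3, 18.3, 67.7 and 35.8 CPM in replicates 1 to 5.

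**Figure D5:**
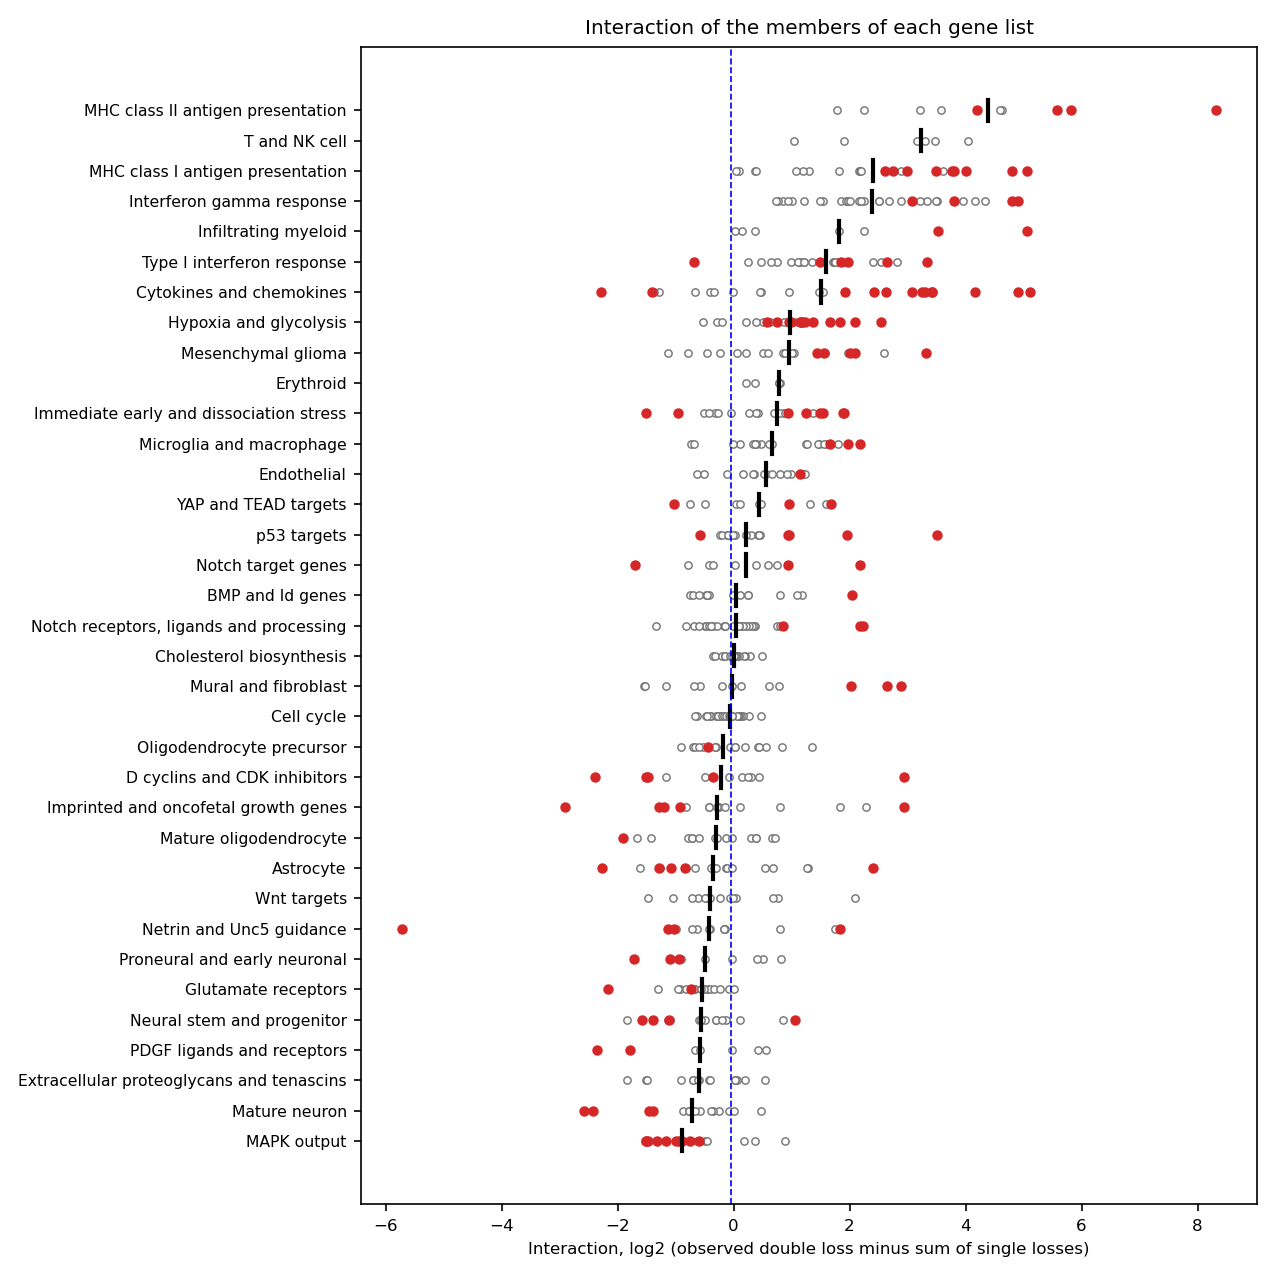
Interaction (log2) of each tested gene of the lists with at least 5 genes tested. Red points have an unadjusted p under 0.05, open points have not, black bars are list medians, and the dashed line is the median of all genes (-0.04). MAPK output has the lowest median (-0.89) and MHC class II the highest (4.39), with members far apart.

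Antigen presentation and interferon response had large positive medians and a wide spread over libraries. The median interaction was 4.39 over 10 MHC class II genes, 2.40 over 22 MHC class I genes, 2.38 over 30 interferon gamma response genes and 1.60 over 26 type I interferon response genes, and none of these genes was called. At an unadjusted p under 0.05 with a positive interaction there were 4, 9, 4 and 5 of them (beside 5.87% of all genes). Notch1-/- replicate 2 had the highest summed level of MHC class II genes in its group. Without it these numbers were 9, 15, 8 and 13 (beside 9.35% of all genes), and the medians were 5.56, 3.03, 3.60 and 1.98. Then 1 gene, the tryptophan-degrading enzyme gene Ido1, was called, with a positive interaction (beside 0.840% of all genes). The summed level of the MHC class II genes ran from 31.6 to 2979 CPM in control, from 10.9 to 2160 in Notch1-/-, from 11.0 to 30.9 in Notch2-/- and from 12.1 to 691.5 in Notch1-/-Notch2-/-. The Notch2-/- libraries were thus low throughout, and each other group held both low and high libraries. H2-Aa, a chain of a class II molecule named after its value was seen, stood at 0.743, 1.14, 1.22, 4.03 and 0.186 CPM in Notch2-/- replicates 1 to 5 and at 1.23, 7.58, 0.653, 149 and 24.2 CPM in Notch1-/-Notch2-/- replicates 1 to 5. Its interaction was 5.82 ± 2.38 (adjusted p = 0.323), with a 95% interval of 0.91 to 10.72.

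Cytokine and chemokine genes leaned to positive interactions as well, with 11 of 24 positive and 2 negative at an unadjusted p under 0.05 (beside 5.87% and 7.02% of all genes), a median of 1.51 and no gene called. The monocyte attractant gene Ccl2, named after its value was seen, had means of 14.5, 1.56, 1.85 and 1.96 CPM in control, Notch1-/-, Notch2-/- and Notch1-/-Notch2-/-, with an interaction of 3.29 ± 0.92 (adjusted p = 0.206). Tnf stood at 3.42 ± 0.93 (adjusted p = 0.199). Without Notch1-/- replicate 2, 12 were positive and 3 negative at an unadjusted p under 0.05 (beside 9.35% and 8.12% of all genes). The chemokine genes Ccl5, Cxcl2 and Cxcl16 were then called, all positive (beside 0.840% of all genes), and were named for that.

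Markers of other cells differed in level between these groups. The summed level of 21 microglia and macrophage genes ran from 400.4 to 1659 CPM in control, from 63.9 to 298.7 in Notch1-/-, from 337.7 to 794.3 in Notch2-/- and from 56.4 to 183.1 in Notch1-/-Notch2-/-, and none of the 21 was at 0 in all 22 libraries. Their median interaction was 0.66, 3 had an unadjusted p under 0.05 with a positive interaction (beside 5.87% of all genes), and none was called. Without Notch1-/- replicate 2 the median was 0.95, 8 had such a p (beside 9.35% of all genes) and again none was called. The receptor adaptor gene Tyrobp had means of 23.8, 2.30, 7.95 and 3.00 CPM in control, Notch1-/-, Notch2-/- and Notch1-/-Notch2-/-, and an interaction of 1.96 ± 0.62 (adjusted p = 0.239). Lyz2, the lysozyme gene of myeloid cells, stood at 3.53 ± 0.88 (adjusted p = 0.145). Sorted pools cannot tell fewer cells of a type from less RNA per cell. When the fit held a score of those microglia and macrophage genes, 8 genes were called, 6 of them among the 12 (Mtus1, Rps2, Unc5d, Zfp459, AI506816 and Cpne8). With the endothelial score added, an alternative chosen after seeing the data, 7 were called, with Cpne8 no longer among them.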

How the data were processed

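RNA of sorted glioma cells was sequenced after a stranded library preparation, per the labels' protocols. The authors deposited a table of raw read counts per gene for 26 libraries. The submitters' processing notes name STAR and the build mm10. For STAR's version, the counting tool, the annotation and any use of strand, nothing is given in the sources used here. Library totals of 31593287 to 48103535 counts across the 22 libraries used leave the spread between libraries, not counting error, as the main limit except for genes with few reads.

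Of 24454 genes listed by Entrez identifier, 24374 matched a RefSeq symbol (GRCm38.p6), and the other 80 held 0.348% of counts. Genes with low counts were dropped by edgeR's filterByExpr by genotype, leaving 15617. All 26 libraries were fitted by genotype with edgeR 4.0.16 (TMM scaling, glmQLFit and glmQLFTest) in R 4.3.3, with Benjamini-Hochberg adjustment over all genes tested, and contrasts gave the interaction and the simple effects. Standard errors were the log2 change divided by the square root of the test's F. CPM used TMM-scaled totals and were not compared between genes, whose lengths differ. The code was tested on simulated data. Of 56 pairs of libraries of 1 genotype, none agreed within sampling noise (chi-square per gene of 43.5 to 588.8), so each library counted as 1 sample.

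Alternatives were DESeq2's size factors, no filter, a stricter filter (10 CPM in 4 libraries), DESeq2 1.42.0's Wald test, limma 3.58.1's voom with quality weights, a replicate block, fitting the 22 libraries alone, covariates for microglia and macrophage genes or Xist, leaving out the 3 mixed libraries, and leaving out each library. The genes named were Notch1, Notch2, Rbpj and Trp53, the 15 largest interactions of each sign among called genes whose mean log2 CPM was 1 or more (filled by smallest p where fewer were called), up to 4 called members of each list or else the one with the smallest p, and the 5 genes of each class with the smallest adjusted p. The text describes some of these 68 genes. The members, gene lists and rules were chosen with earlier results of these data known.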

Additional observations from a re-analysis of the deposited data

Results flagged for a closer look

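With all libraries, the change on loss of one receptor differed with the labelled state of the other for the 12 called genes, by the test of the interaction itself (edgeR's quasi-likelihood test). Of 22 fits that each left out 1 library, Rnf151 was called in 6, Fam78b in 7 and Tnfrsf10b in 9. Unc5d, Rps2, Mtus1, Cpne8 and Zfp459 were called in all 22. Without the 7 libraries that hold Xist, Unc5d alone was called. The interaction was -7.74 for Rps2, -5.71 for Unc5d, -5.68 for Chrm3, -3.32 for AI506816, -2.86 for Cpne8, -2.21 for Mtus1, -1.99 for Enpp3, -1.44 for Fam78b and -1.25 for Rab6b. It was 3.11 for Zfp459, 3.51 for Tnfrsf10b and 4.54 for Rnf151.

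Over 58 genes and 232 groups of libraries, 27 groups held 1 library far from the rest by Dixon's test, beside the 1 in 20 groups that chance gives. In 20 of these the library was the lowest, and 9 were Notch1-/- replicate 2. That library was lowest for Cpne8 (49.9 CPM), Sox9 (9.58 CPM), Dusp6 (56.2 CPM), Ccnd2 (114 CPM), Spry1 (58 CPM), Spry2 (47.1 CPM), Spry4 (86.7 CPM), Etv1 (87.3 CPM) and Dcc (57.3 CPM). The 58 genes were not chosen blind, since some were named after their values were seen. Their groups share libraries and are not independent. The excess over 1 in 20 is therefore a description, and no separate evidence on Notch1-/- replicate 2. Control replicate 4 was highest for Egr1 (294 CPM), Ankrd37 (9.62 CPM) and Pdk1 (58 CPM) and lowest for Heyl (1.58 CPM), Tyrobp (6.72 CPM) and Lyz2 (7.08 CPM). Among other controls, Trp53 was highest in replicate 3 (15.2 CPM) and Hepacam lowest in replicate 6 (138 CPM).

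In Notch1-/-, AI506816 was lowest in replicate 3 (4.02 CPM) and Dll4 in replicate 1 (0.0698 CPM). In Notch2-/-, Spry4 was highest in replicate 2 (356 CPM), Cd74 in replicate 4 (9.82 CPM) and Rnf151 in replicate 5 (0.207 CPM), while Hes5 was lowest in replicate 5 (2.38 CPM) and Mfng in replicate 2 (0.532 CPM). In Notch1-/-Notch2-/-, Hes1 was lowest in replicate 4 (1.39 CPM), and Tyrobp (0.793 CPM) and C1qa (1.45 CPM) in replicate 3.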

How the results depend on the processing

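With all 26 libraries in edgeR the interaction was called for 12 genes, Notch1 loss for 4174 with Notch2 intact and 2714 with Notch2 lost, Notch2 loss for 46 with Notch1 intact and 100 with Notch1 lost, and the double loss for 5794. In that order, DESeq2's Wald test called 124 (70 positive and 54 negative), 4949, 3470, 344, 284 and 6392, and voom with quality weights 924 (441 positive and 483 negative), 6907, 4449, 1790, 359 and 7364. The microglia and macrophage covariate gave 8, 12, 993, 20, 98 and 185, and with the endothelial score added 7, 3, 218, 25, 61 and 9. Without the 3 mixed libraries the counts were 5, 3142, 978, 12, 41 and 5061, and without the 7 that hold Xist 1, 1503, 128, 5, 6 and 2149. These last and the 2 scores together were chosen after seeing the data. Xist as a covariate gave 7 for the interaction and 28 for Notch2 loss with Notch1 lost. The stricter filter gave 1778 for Notch1 loss with Notch2 lost and 16 and 40 for Notch2 loss, and no filter 61 for Notch2 loss with Notch1 lost.

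Leaving out each library gave 5 to 227 for the interaction, 2815 to 5290 and 1478 to 3164 for Notch1 loss, 21 to 170 and 18 to 199 for Notch2 loss and 4639 to 6256 for the double loss. Samples of different genotypes with the same replicate number had correlations of -0.417 to 0.572 around their group means (31 pairs, 9 above 0.1). Pairs with different numbers were not compared, so whether the replicate numbers pair the samples was not settled. With a replicate block 6 genes were called for the interaction, 5 of them among the 12, with 25 and 28 for Notch2 loss. Over 12 alternatives and 22 libraries left out, the estimates of the 12 called genes never changed sign and 116 estimates lost the call. For the other genes described, 78 estimates passed the threshold, 26 of them with voom, 16 with DESeq2's Wald test and 20 without Notch1-/- replicate 2. Estimates of genes that were not called changed sign for Hes5 with voom (0.19), for Unc5b without the libraries with Xist (0.0846), and for Hey1 with the microglia and macrophage covariate (-0.0297) and without 8 libraries taken singly (-0.11 to 0.25 over all 22). The cause of these shifts was not tested. Depth limits Rnf151, Chrm3, Zfp459 and Tnfrsf10b, which had few reads.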

Other observations

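Astrocyte genes went both ways. Of 20 astrocyte genes tested, none was called with all libraries, 4 had an unadjusted p under 0.05 with a negative interaction and 1 with a positive one (beside 7.02% and 5.87% of all genes), and the median was -0.35 beside -0.04 over all genes. Sox9, a transcription factor gene of glial progenitors and astrocytes, had means of 18.5 CPM in control, 37.7 in Notch1-/-, 47.5 in Notch2-/- and 20.1 in Notch1-/-Notch2-/-. Its interaction was -2.27 ± 0.57 (adjusted p = 0.145), and -2.47 ± 0.51 (adjusted p = 0.0182) without Notch1-/- replicate 2, which had the lowest level of its group. The adhesion gene Hepacam, named after its value was seen, fell with both losses (-1.47 ± 0.24, adjusted p = 0.000135), and all 5 libraries of the double loss, at 90.7, 50.1, 94.1, 32.1 and 62.1 CPM, lay below every control and Notch2-/- library. Its interaction was -1.29 ± 0.34 (adjusted p = 0.177), and -1.38 ± 0.32 (adjusted p = 0.0324) without that library. The filament gene Gfap (2.41 ± 0.72, adjusted p = 0.211) and the calcium-binding protein gene S100b (1.28 ± 0.66, adjusted p = 0.417) had positive estimates. Both were named after their values were seen. Without Notch1-/- replicate 2 S100b was called (2.23 ± 0.45, adjusted p = 0.0178). In that fit 3 astrocyte genes were positive and 4 negative at an unadjusted p under 0.05 (beside 9.35% and 8.12% of all genes). Of them 1 was called positive and 2 negative (beside 0.840% and 0.616%). All 18 glutamate receptor genes tested had a negative estimate, beside 8402 of 15617 genes, with a median of -0.55, 2 of them at an unadjusted p under 0.05 (beside 7.02%) and none called.

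Mesenchymal glioma genes leaned the other way, with 5 of 20 positive and 0 negative at an unadjusted p under 0.05 (beside 5.87% and 7.02% of all genes), a median of 0.95 and none called. Without Notch1-/- replicate 2 there were 4 positive and 1 negative (beside 9.35% and 8.12% of all genes), with a median of 0.74. S100a6, a calcium-binding protein gene, fell with Notch1 loss (-1.27 ± 0.37, adjusted p = 0.0156), with Notch2 loss (-2.27 ± 0.41, adjusted p = 0.00966) and with both (-1.45 ± 0.40, adjusted p = 0.00661). Its interaction was 2.09 ± 0.55 (adjusted p = 0.18), and 2.61 ± 0.46 (adjusted p = 0.00926) without Notch1-/- replicate 2, where it stood at 74.4 CPM, the highest of that group.

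A few genes lay just outside the threshold with all libraries. Hhipl2 ran from 2.71 to 5.31 CPM (median 3.45) in Notch1-/-, below every library of the other 3 genotypes compared here, and stood at 41.4, 32.1, 58.3, 24.7 and 21.4 CPM in Notch1-/-Notch2-/- replicates 1 to 5, inside the range of the controls. Hhipl2 fell with Notch1 loss (-3.23 ± 0.44, adjusted p = 6.27e-05), and its interaction was 2.96 ± 0.61 (adjusted p = 0.0589), and 3.05 ± 0.63 (adjusted p = 0.0184) without Notch1-/- replicate 2. For Hspb11 the interaction was 1.39 ± 0.28 (adjusted p = 0.0528), and 1.49 ± 0.27 (adjusted p = 0.0107) without that library. Pamr1 rose with both losses (1.42 ± 0.33, adjusted p = 0.00228). Its interaction was 2.28 ± 0.48 (adjusted p = 0.0707), and 2.20 ± 0.49 (adjusted p = 0.0269) without Notch1-/- replicate 2.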
